A study of Mus musculus with 12 samples.

Results

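Complex I, NADH:ubiquinone oxidoreductase, is the entry point of electrons from NADH into the respiratory chain. Its genes carry the prefix Nduf when they are encoded in the nucleus. The genes described here are all those whose symbol starts with Nduf and that have at least 1 probe set annotated with that symbol alone, which gave 39 genes of 12393 with a single symbol on the array. They were represented by 74 such probe sets. Each gene was read from the probe set with the highest mean log2 signal over the 12 arrays, a choice that used no difference between the groups. The label of subunits and assembly factors of complex I held for 38 of the 39. Ndufa4 was long counted to complex I and is now placed in complex IV.

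The tissue was quadriceps muscle of C57Bl/6J mice, in 4 groups of 3 arrays. Each array carried RNA pooled from 3 mice, so an array is a pool and not an animal. The vehicle group was sedentary and received vehicle for 4 weeks. The exercise group was trained and received vehicle. The GW group was sedentary and received GW1516, which activates the nuclear receptor PPARδ, daily at 5 mg/kg/day for 4 weeks, and the combination group received the same drug dose with training. The labels give neither the age nor the sex of the mice and name no mouse for a pool. The p-values therefore measure the spread between pools, which is narrower than that between single mice where pools average over animals. In bulk muscle RNA, fewer fibres of a kind and less RNA per fibre cannot be told apart.

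Complex I has a matrix arm and a membrane arm. The N module at the tip of the matrix arm oxidises NADH through a flavin and passes electrons along iron-sulphur clusters to the Q module, which reduces ubiquinone. The membrane arm, with a proximal and a distal part, pumps protons, and its central pump subunits are encoded by mitochondrial DNA and carry other symbols. Assembly factors build the modules and are absent from the finished enzyme. In muscle the complex is especially abundant in oxidative fibres, and both endurance training and PPARδ are known for raising oxidative capacity.

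No Nduf gene passed the test in any of the 8 comparisons made. Most were instead measured tightly between arrays, each from its brightest probe set, and their differences were small. Against vehicle, the median log2 difference over the 39 genes was 0.0488 in GW, 0.0525 in exercise and 0.0513 in the combination, where 1 log2 unit is a doubling. Over all 13575 probe sets tested the medians were -0.000627, 0.00788 and -0.00266. Of the 39 genes, 23 lay above 0 in GW, 31 in exercise and 26 in the combination, beside 49.8%, 51.2% and 49.6% of all probe sets. The 39 genes share pools and the 3 comparisons share the vehicle arrays, so these counts are descriptions.

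**Figure D1:**
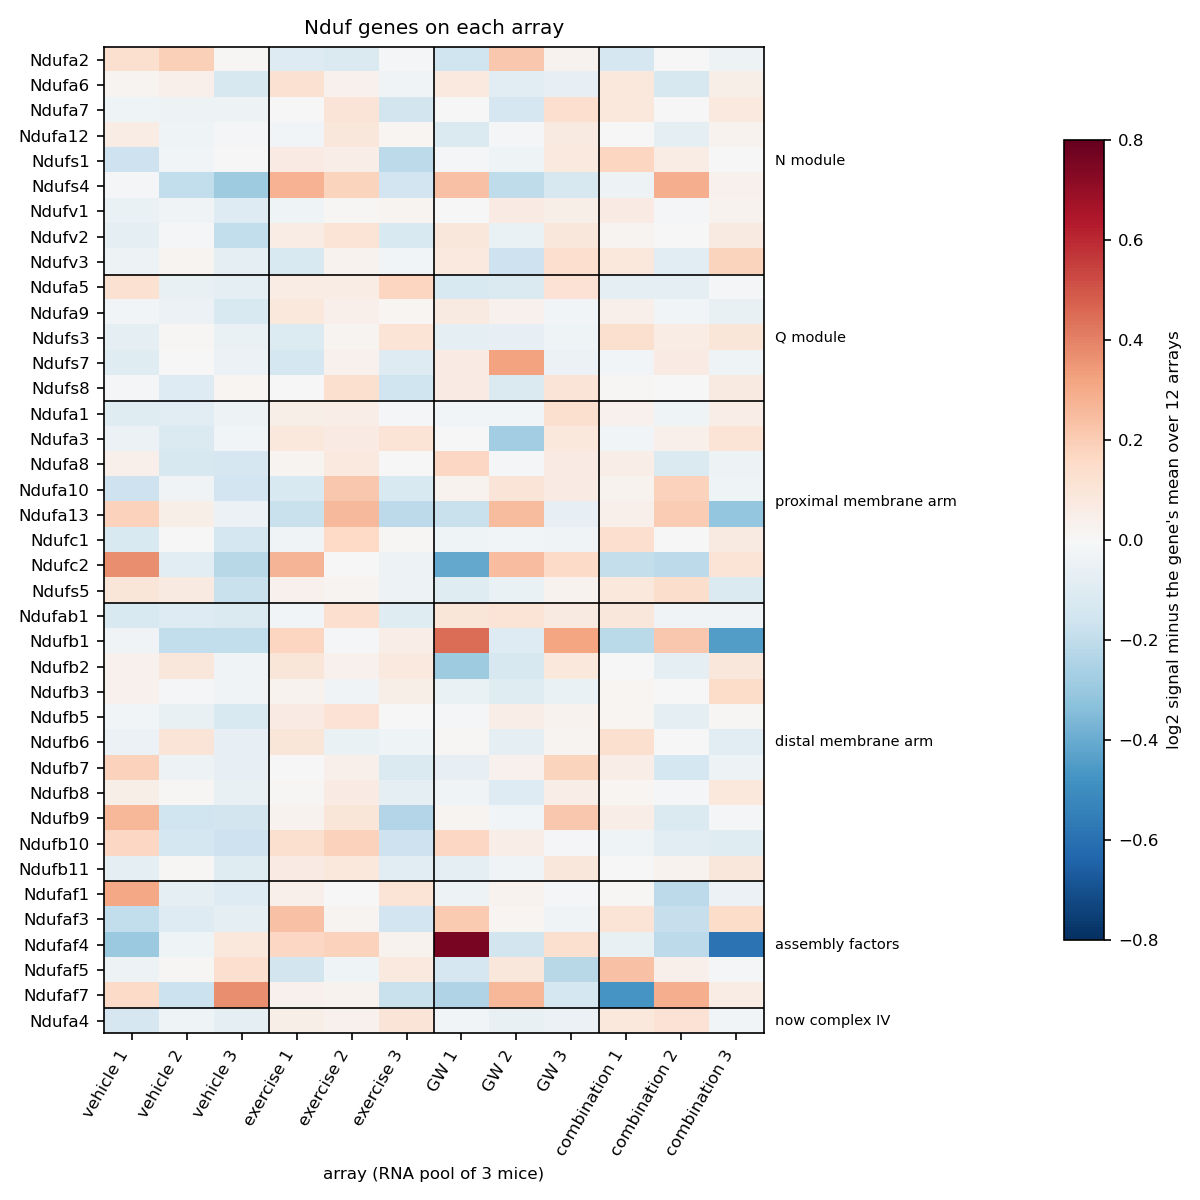
The log2 signal of each of the 39 Nduf genes on each array minus the gene's mean over the 12 arrays, with genes in rows grouped by module and arrays in columns grouped by treatment. Most cells are pale, and the deepest colours lie in Ndufaf4, Ndufaf7, Ndufb1 and Ndufc2, in single arrays.

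The quality of these measurements bears on that result. Member probe sets were bright, with mean signals from 117.1 to 6948.7 and a median of 3176.4, while signals of the 27 bacterial controls, taken as background, had their median at 4.884 and their 95th percentile at 23.52. The lowest member signal on any array was 84.46. All 6 muscle fibre markers (Acta1, Ckm, Tnnt3, Tnni2, Myh4, Des) exceeded the bacterial 95th percentile, with a summed signal of 96520 to 103100 in vehicle, 112800 to 118200 in exercise, 98460 to 121900 in GW and 103500 to 114300 in the combination. Other cell types were also present, and 6 of the 8 fat cell markers were on the array, 4 of them above background. Their sum was 1765 to 2494 in vehicle, 2091 to 2550 in exercise, 2091 to 2395 in GW and 1738 to 7289 in the combination. The 8 slow fibre markers, 5 above background, summed to 3498 to 5823 in vehicle, 8330 to 10600 in exercise, 3160 to 8366 in GW and 5682 to 8675 in the combination. Mb, myoglobin, made up 88.8% to 95.7% of the slow fibre sum on each array, so the sum is mostly the level of that 1 gene. The exercise sums lay wholly above vehicle for the muscle fibre markers and for the slow fibre markers, and the combination sums did so for the muscle fibre markers. The part of these cell and fibre markers in the Nduf values was not tested. A fit with a fat marker score called 0 Nduf genes, as did the fit without it, so this count cannot show that part. With the score, the Nduf medians against vehicle were 0.0462 in GW, 0.0534 in exercise and 0.0774 in the combination. Without it they were 0.0488, 0.0525 and 0.0513.

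Before the values by module, some start-site sequences are shown, because promoters are the one feature of these genes, outside the arrays, that could be compared over the members. RefSeq promoters on GRCm38.p6, from 250 bases before to 50 after the start, were found for 36 of the 39 genes and for 27025 genes in all. Short motifs of factors known to act on respiratory genes were searched on both strands. The motif AAGATGGC, bound by YY1, was in 6 of 36 members (16.7%) and in 3.19% of all genes. All 6 matches lay on the gene's own strand, from 23 to 39 bases after the start, and these letters include ATG, so a match can coincide with a start codon. They are given in windows of 24 bases, 5′ to 3′ on the gene's strand, with the motif in capitals, since they are the matches most alike in place and strand.
Ndufa3 (chr7:3617387-3617410, plus): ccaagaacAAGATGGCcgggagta
Ndufa9 (chr6:126849100-126849123, minus): tgtgggagAAGATGGCggccgccg
Ndufb8 (chr19:44555393-44555416, minus): gcggagaaggtgAAGATGGCtgcc
Ndufc1 (chr3:51408918-51408941, minus): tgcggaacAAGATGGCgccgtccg
Ndufs4 (chr13:114388045-114388068, minus): gcctacaggAAGATGGCggcggtc
Ndufs7 (chr10:80249465-80249488, plus): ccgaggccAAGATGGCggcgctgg

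The NRF1 motif GCGCATGC was in 4 of 36 members (11.1%) and in 3.05% of all genes, and the ETS motif CCGGAAG in 5 members (13.9%) and in 9.93% of all genes. The nuclear receptor half-site AAGGTCA was in 2 members (5.56%) and in 5.38% of all genes, so its share among Nduf genes was close to that of all genes. CCGGAAG ends in the AAG with which AAGATGGC and AAGGTCA begin, so matches can overlap, though no member held both CCGGAAG and one of these. A match is a description of letters and not a bound site. As examples, the window before the start is printed for Ndufa8, with an NRF1 match in capitals on the opposite strand, and for Ndufs3, with an ETS match on its own strand, because both genes recur in the results.
Ndufa8 (chr2:36049339-36049398, minus): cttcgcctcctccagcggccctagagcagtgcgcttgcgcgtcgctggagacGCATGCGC
Ndufs3 (chr2:90904722-90904781, minus): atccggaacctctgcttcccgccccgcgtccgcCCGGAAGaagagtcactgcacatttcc

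The N module was represented by 9 genes. Its core subunits differed little from vehicle. Ndufv1, which holds the flavin and the NADH site, had signals of 1968, 2008 and 1908 in vehicle and of 2042, 2140 and 2109 in GW. In exercise Ndufv1 read 1999, 2058 and 2077, and in the combination 2146, 2025 and 2089. The GW and combination arrays lay above all vehicle arrays, by a log2 difference of 0.10 and 0.09. Other Ndufv1 probe sets, at mean signals of 1997 and 1733, gave -0.0123 and 0.0661 in GW. In the combination they gave -0.0754 and -0.025, below 0. For Ndufv2, which carries an iron-sulphur cluster next to the flavin, the log2 difference from vehicle was 0.14 in GW, 0.11 in exercise and 0.12 in the combination. Ndufs1, the large subunit with several iron-sulphur clusters, showed 0.07, 0.03 and 0.14. None of these passed the test.

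Ndufs4 is an accessory subunit needed for a stable N module. Read from the brightest probe set of each gene, it showed the largest log2 differences of the module in both trained groups. Its signal was 2578, 2263 and 2127 in vehicle, 3150, 2931 and 2331 in exercise, 2526, 3170 and 2662 in the combination and 3048, 2254 and 2368 in GW. Each treated group overlapped with vehicle. The log2 difference of Ndufs4 from vehicle was 0.26 ± 0.13 (SE, n = 3) in exercise, with an adjusted p of 0.508 by limma. Dimmer Ndufs4 probe sets, at mean signals of 197.6 and 136.1, gave 0.107 and 0.649 in exercise. In the combination they gave -0.189 and 0.0383, and in GW -0.208 and 0.379.

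Ndufa2, an accessory subunit with a thioredoxin fold, went the other way. Its signal was 2327, 2430 and 2136 in vehicle, 1980, 1959 and 2111 in exercise, 1936, 2120 and 2067 in the combination and 1903, 2467 and 2169 in GW. All exercise and combination arrays were below all vehicle arrays, while GW overlapped with vehicle. For Ndufa2 the log2 difference in exercise was -0.19 ± 0.09 (SE, n = 3; adjusted p 0.506). The other accessory subunits of the module, Ndufa6, Ndufa7, Ndufa12 and Ndufv3, lay between -0.02 (Ndufa12 in GW) and 0.09 (Ndufa7 in the combination) against vehicle. Some less bright probe sets of these genes lay outside this range. An Ndufa12 probe set with a mean signal of 1655 gave -0.165 in GW and -0.29 in the combination (adjusted p 0.379 by limma). An Ndufa7 probe set with a mean signal of 1874 gave 0.313 in GW and -0.11 in the combination. Its combination differed from GW by -0.423 (adjusted p 0.67).

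The Q module was represented by 5 genes, with medians of 0.0512 in GW, 0.0485 in exercise and 0.0522 in the combination. Ndufs3, a core subunit around which the module assembles, had signals of 4658, 4940 and 4729 in vehicle, 4553, 4981 and 5308 in exercise, 4675, 4690 and 4798 in GW and 5372, 5117 and 5252 in the combination. The combination arrays of Ndufs3 were above all vehicle and all GW arrays and overlapped with exercise. Its log2 difference was 0.14 ± 0.07 (SE, n = 3) for the combination against vehicle (adjusted p 0.534), 0.15 ± 0.07 against GW (adjusted p 0.854) and 0.09 ± 0.07 against exercise (adjusted p 0.756).

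Ndufs7 carries the last iron-sulphur cluster before ubiquinone. It read 5347, 5725 and 5544 in vehicle, 5197, 5879 and 5334 in exercise, 5646, 5999 and 5584 in the combination and 5999, 7175 and 5542 in GW. The high GW mean came mainly from GW array 2, and the groups overlapped. Averaged over training, the drug difference of Ndufs7 was 0.12 ± 0.06 (SE; adjusted p 0.656). A second Ndufs7 probe set, at a mean signal of 3700, gave 0.0271 for it. The core subunit Ndufs8 gave 0.05, 0.03 and 0.06 against vehicle in GW, exercise and the combination. Ndufa5, an accessory subunit, read 2337, 2341 and 2529 in exercise and 2128, 2134 and 2231 in the combination, with all combination arrays lower. Its vehicle arrays were at 2445, 2157 and 2125 and its GW arrays at 2058, 2069 and 2427. The log2 difference of Ndufa5 between combination and exercise was -0.15 ± 0.09 (SE, n = 3; adjusted p 0.635). A second Ndufa5 probe set, at a mean signal of 1780, gave -0.0067 there (adjusted p 0.993 by limma). For exercise against vehicle it gave -0.153, where the first gave 0.101.

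In the proximal membrane arm, 8 genes were measured. For exercise against vehicle their median was 0.105, beside 0.00788 over all probe sets tested. They lay between -0.105 (Ndufa13) and 0.148 (Ndufa3) in exercise. In GW they lay between -0.059 (Ndufa13) and 0.184 (Ndufa10), with Ndufa3, Ndufc2 and Ndufs5 also below 0. In the combination they lay between -0.119 (Ndufc2) and 0.174 (Ndufa10), with Ndufa13 also below 0. Ndufc1, a small membrane subunit, read 4504, 4875 and 4449 in vehicle, 4811, 5466 and 4920 in exercise, 4785, 4823 and 4791 in GW and 5370, 4902 and 5144 in the combination. Only the combination of these 3 groups lay wholly above vehicle. For the combination against vehicle, Ndufc1 differed by 0.16 ± 0.07 (SE, n = 3), with an unadjusted p of 0.0408 and an adjusted p of 0.489 by limma. Averaged over the drug, its training difference was 0.12 ± 0.05 (SE; adjusted p 0.521). A second Ndufc1 probe set, at a mean signal of 3355, gave 0.0483 for the combination against vehicle. For training averaged over the drug it gave -0.101, the opposite sign.

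Ndufa10, whose fold resembles nucleoside kinases, read 2668, 2927 and 2683 in vehicle, 3050, 3212 and 3134 in GW, 2751, 3473 and 2747 in exercise and 3042, 3392 and 2918 in the combination. The GW arrays lay above the vehicle arrays, and the trained groups overlapped with vehicle. The log2 difference of Ndufa10 in GW was 0.18 ± 0.09 (SE, n = 3; adjusted p 0.783), and averaged over training it was 0.12 ± 0.07 (SE; adjusted p 0.660). A second, dimmer Ndufa10 probe set (mean signal 274.8) gave -0.0289 in GW and -0.197 in the combination against vehicle. For the drug averaged over training it gave -0.0816. Ndufa8, an intermembrane-space subunit with paired cysteines, read 3028, 2702 and 2685 in vehicle, 3311, 2921 and 3091 in GW, 2987, 3116 and 2948 in exercise and 3061, 2726 and 2860 in the combination. All 3 treated groups of Ndufa8 overlapped with vehicle, with a GW difference of 0.15 ± 0.08 (SE, n = 3; adjusted p 0.798).

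Ndufa3, a small transmembrane subunit, read 6097, 5812 and 6214 in vehicle and 6692, 6593 and 6788 in exercise, with no overlap. Its GW arrays spanned 5203 to 6671 and its combination arrays 6206 to 6810. The training difference of Ndufa3 was 0.13 ± 0.06 (SE; adjusted p 0.546). Ndufa1, also a small transmembrane subunit, was the member of this arm whose 3 treated groups all lay above vehicle, with log2 differences of 0.10 in GW, 0.10 in exercise and 0.09 in the combination. Ndufa13, known also as GRIM-19, varied between arrays of every group rather than between groups. Its highest array in the groups was at 6457, 6803, 6536 and 6770 in vehicle, exercise, combination and GW, and its lowest at 5485, 4898, 4570 and 5016.

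The distal membrane arm had 11 genes, with medians of 0.0488 in GW, 0.0384 in exercise and 0.0154 in the combination. Ndufab1, the mitochondrial acyl carrier protein, serves as a complex I subunit and in mitochondrial fatty acid and lipoate synthesis. Its signal was 2783, 2819 and 2798 in vehicle, 3234, 3267 and 3186 in GW, 2985, 3326 and 2831 in exercise and 3216, 2973 and 2971 in the combination. All 9 treated arrays lay above all 3 vehicle arrays. The difference of GW from vehicle was 0.21 ± 0.07 (SE, n = 3), with an unadjusted p of 0.0133 and an adjusted p of 0.684 by limma. This value is that of the brightest of 3 Ndufab1 probe sets. The second gave 0.0864, and the third, too dim to be tested at a mean signal of 27.51, gave -0.358, so that the mean over the 3 probe sets was -0.02 (adjusted p 0.987).

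Ndufb1 was dim, with a mean signal of 133, and read 130, 116 and 116 in vehicle, 150, 132 and 138 in exercise, 181, 124 and 165 in GW and 115, 155 and 97 in the combination. Its exercise arrays were all above vehicle, and GW and the combination overlapped with it. The log2 difference between combination and GW was -0.37 ± 0.20 (SE, n = 3; adjusted p 0.860). The remaining 9 genes of the arm (Ndufb2, Ndufb3 and Ndufb5 to Ndufb11) lay between -0.14 (Ndufb2) and 0.12 (Ndufb10) in GW against vehicle. Among them Ndufb5 lay above vehicle on all GW and all exercise arrays, and Ndufb3 below vehicle on all GW arrays.

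**Figure D2:**
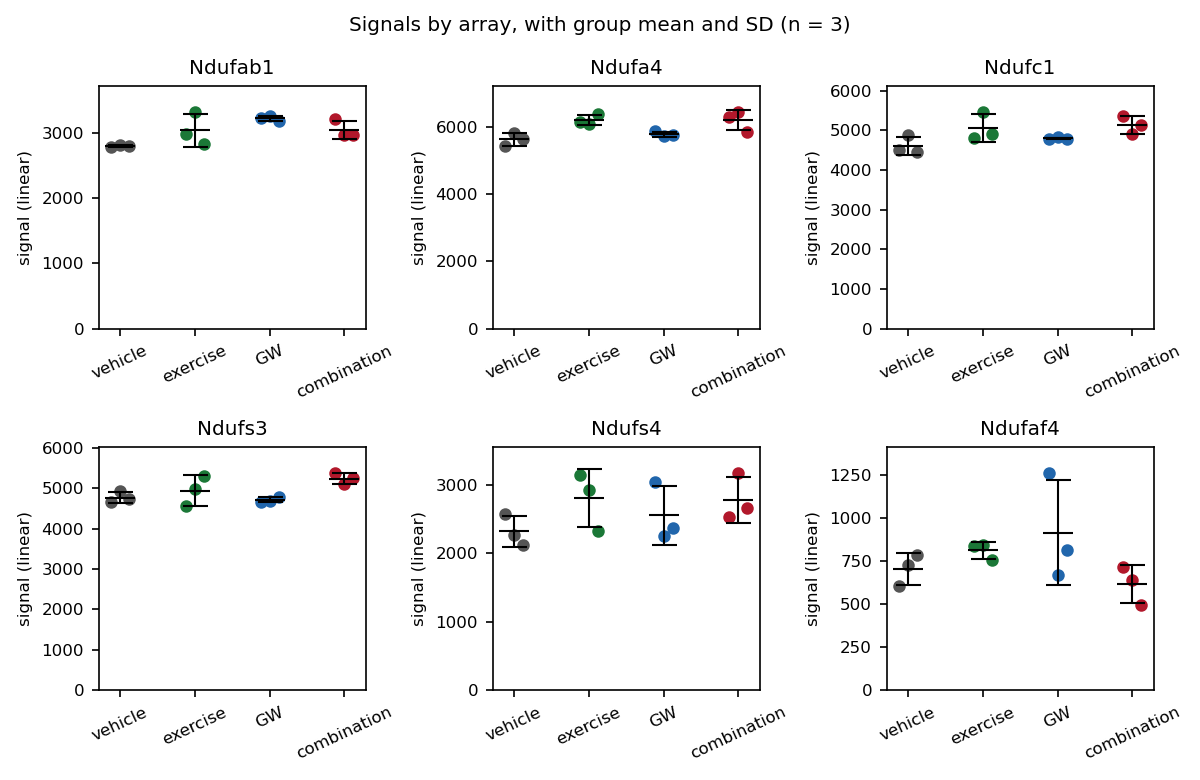
Deposited signals, on a linear scale that starts at 0, of 6 Nduf genes on each array, with a horizontal bar for the mean and whiskers for the SD of the 3 arrays of a group. Ndufab1 vehicle arrays lie below the other 9, while Ndufaf4 has 1 GW array at 1260 and the other groups between 494 and 847.

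Assembly factors were measured for 5 genes, all with mean signals under 1000. Ndufaf1, which acts in building the membrane arm, had log2 differences from vehicle of -0.05 in GW, 0.01 in exercise and -0.13 in the combination. For Ndufaf3, a partner of Ndufaf4 on the early Q module, they were 0.19, 0.16 and 0.14. Ndufaf5, which modifies Ndufs7, gave -0.12, -0.07 and 0.05, and Ndufaf7, a methyltransferase, gave -0.16 in each of the 3 comparisons.

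Ndufaf4 showed the largest differences of the combination from the other treated groups, and the largest spread between arrays of a group. It read 605, 725 and 788 in vehicle, 837, 847 and 758 in exercise, 1260, 672 and 815 in GW and 713, 643 and 494 in the combination. All combination arrays were below all exercise arrays. GW and the combination overlapped through GW array 2 and combination array 1. The log2 difference of Ndufaf4 for the combination was -0.42 ± 0.19 (SE, n = 3) against exercise (adjusted p 0.538) and -0.54 ± 0.19 against GW (adjusted p 0.728).

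The interaction, the drug difference under training less that without it, was for Ndufaf4 -0.75 ± 0.27 (SE; adjusted p 0.707 by limma). A second Ndufaf4 probe set, at a mean signal of 282, gave smaller values of -0.0905 against exercise, -0.155 against GW and -0.144 for the interaction. GW array 1 and combination array 3 weighed on the values of the first. Without GW array 1, GW against vehicle moved from 0.33 to 0.0764, and the combination against GW from -0.54 to -0.28. Without combination array 3, the combination against exercise was -0.264. GW array 1 was also the highest array for Ppargc1a (918), Pdk4 (5335) and Ucp3 (1623), and combination array 3 had the highest fat marker score of the 12 arrays. With that score in the fit, the Ndufaf4 difference of the combination was -0.159 against exercise, -0.257 against GW and 0.107 against vehicle, where it was -0.20 without the score.

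Ndufa4, the subunit now placed in complex IV, had the smallest unadjusted p of the 39 for training. It read 5427, 5813 and 5644 in vehicle, 6136, 6084 and 6388 in exercise, 6299, 6441 and 5857 in the combination and 5863, 5716 and 5757 in GW. Both trained groups lay above vehicle, and GW overlapped with it. The log2 difference of Ndufa4 was 0.14 ± 0.06 (SE, n = 3) in exercise (adjusted p 0.458), 0.14 ± 0.06 in the combination (adjusted p 0.489) and 0.04 in GW. Averaged over the drug, the training difference was 0.12 ± 0.04 (SE; adjusted p 0.446).

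The counts by comparison follow, each beside the share of all 13575 probe sets that met the same criterion. For GW against vehicle, 0 of 39 Nduf genes passed an adjusted p of 0.05 (0.0958% of all probe sets), and 1 (Ndufab1, higher) had an unadjusted p under 0.05 (6.42%). For exercise against vehicle 0 passed (0.0147%) and 1, Ndufa4, had an unadjusted p under 0.05 (10.4%). For the combination against vehicle 0 passed (0.155%) and 2, Ndufc1 and Ndufa4, did so unadjusted (9.98%). In all 3 the Nduf share at the unadjusted threshold was below that of all probe sets.

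For the combination against exercise, which is the drug effect in trained mice, 0 passed (0.162%) and 1, Ndufaf4, was lower at an unadjusted p under 0.05 (9.18%). For the combination against GW, the effect of training under the drug, 0 passed (0%), and Ndufaf4 (lower) and Ndufs3 (higher) did so unadjusted (5.75%). In the interaction 0 passed (0%) and 1, Ndufaf4, did so unadjusted (6.79%). For the interaction Ndufb1 followed at -0.58 ± 0.28 (SE; adjusted p 0.727) and Ndufa8 at -0.22 ± 0.11 (SE; adjusted p 0.731). Averaged over training, the drug effect had 0 called (0.317%) and 0 at the unadjusted threshold (8.37%), with Ndufab1 first at 0.11 ± 0.05 (SE; adjusted p 0.625). Averaged over the drug, training had 0 called (0.0147%) and 3 at the unadjusted threshold (9.09%), namely Ndufa4, Ndufc1 and Ndufa3, all higher. The second Ndufc1 probe set was lower there, at -0.101.

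Arrays of a treated group lay wholly outside the vehicle arrays for 8 genes in GW (20.5%), beside 11% of all probe sets. The same count was 8 in exercise (20.5%, beside 17.4%) and 10 in the combination (25.6%, beside 16.8%). Of these, 7, 7 and 9 were higher than vehicle. Ndufa1 and Ndufab1 were higher in all 3 lists, and the only lower ones were Ndufb3 in GW and Ndufa2 in exercise and in the combination.

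**Figure D3:**
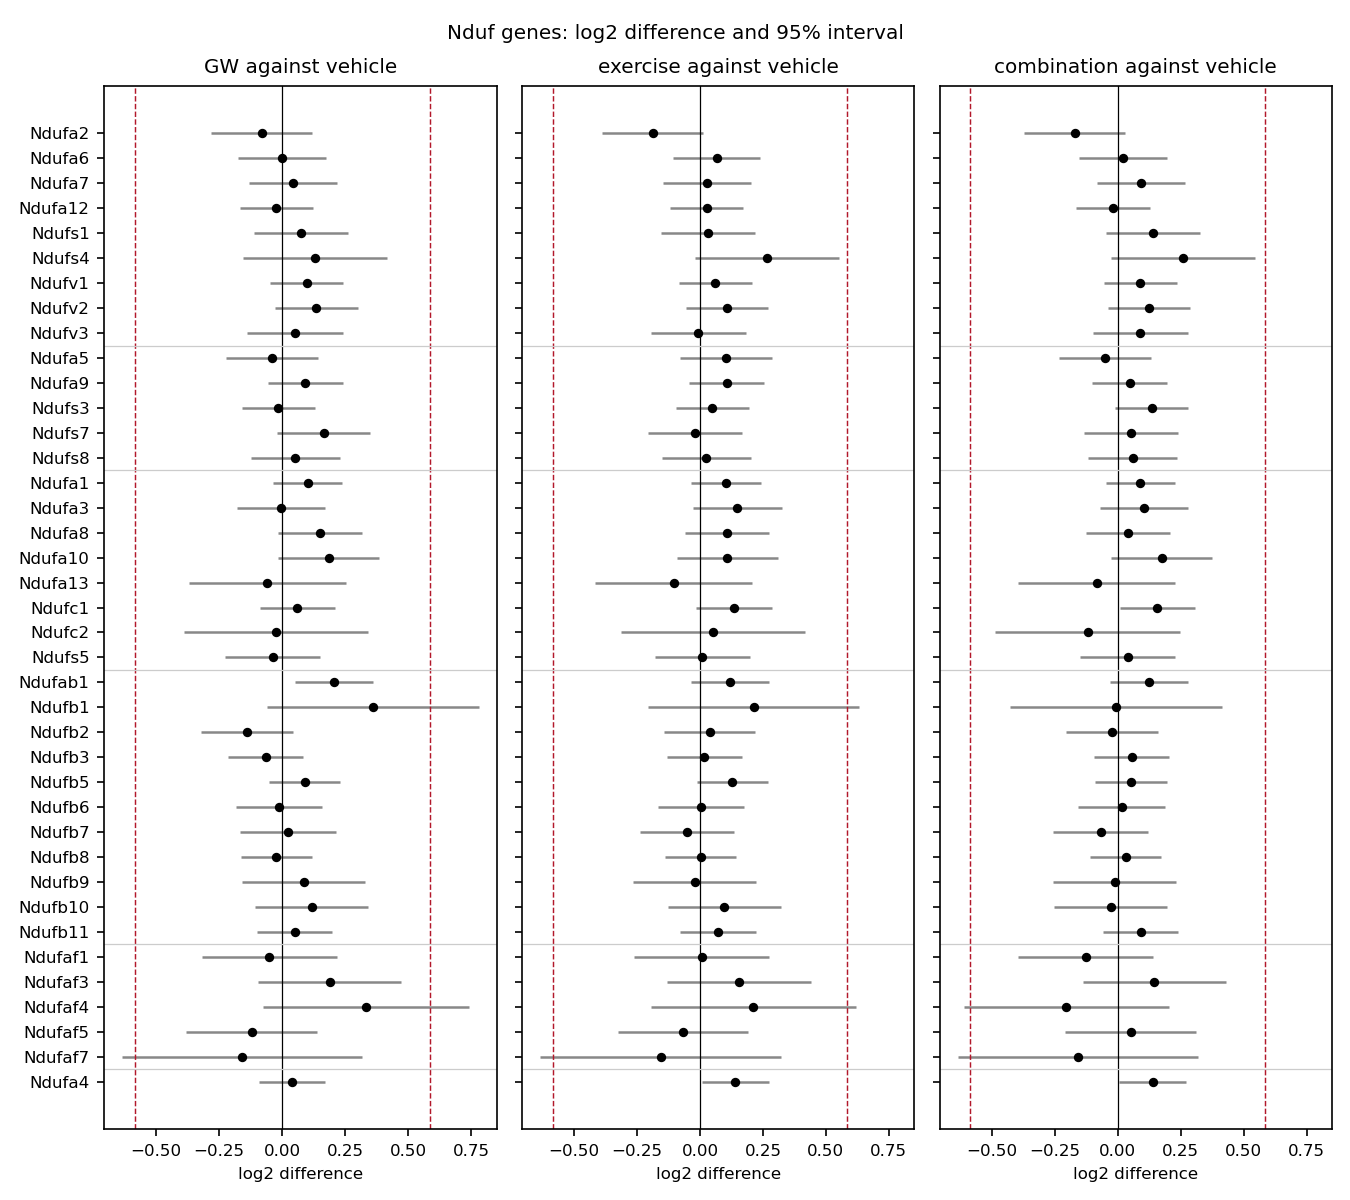
Log2 difference of each of the 39 Nduf genes from vehicle (point) with its 95% interval (line) in GW, exercise and the combination, and dashed lines at 1.5-fold either way. The interval lies between the dashed lines for 36, 36 and 37 genes, and the exceptions are Ndufaf4, Ndufaf7 and Ndufb1.

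A p above the threshold does not show that a gene was unchanged. The 95% intervals were therefore compared with a limit of 1.5-fold in either direction, chosen after the values were seen. Each interval is that of the gene's brightest probe set and leaves out the gap between probe sets of a gene. The interval lay within the limit for 36 of 39 genes in GW against vehicle (46% of all probe sets), 36 in exercise (43.8%) and 37 in the combination (43.8%). It did so for 37 in the combination against exercise (44.8%), 37 in the combination against GW (47%), 33 in the interaction (24.5%), 39 for the drug effect averaged over training (66.3%) and 39 for training averaged over the drug (66%). Outside the interaction, the genes whose interval crossed the limit were Ndufaf4, Ndufaf7 and Ndufb1. In the interaction Ndufaf3, Ndufaf5 and Ndufc2 joined them.

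At a tighter limit of 1.2-fold the count was 21 in GW (5.92% of all probe sets), 18 in exercise (4.96%) and 19 in the combination (5.3%) against vehicle. It was 19 in the combination against GW (6.42%) and 5 in the interaction (0.634%). The narrow intervals go with signal. The median standard error of a pairwise difference was 0.085 for the Nduf genes and 0.208 for all probe sets, and it was 0.0851 for the 638 probe sets at or above 2201.2, the lower quartile of Nduf mean signals. The precision of the Nduf genes was thus that of probe sets of their brightness. From the highest to the lowest of the 12 arrays, signals of 35 of the 39 genes varied by less than 1.5-fold, and the 4 others were Ndufaf4 (2.55-fold), Ndufb1 (1.86-fold), Ndufaf7 (1.8-fold) and Ndufc2 (1.71-fold).

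Arrays of a group also differed among themselves in the Nduf genes as a set. The median log2 deviation of the 39 genes from their own means was -0.025, -0.034 and -0.075 on the vehicle arrays, 0.037, 0.053 and -0.027 on the exercise arrays, -0.009, -0.024 and 0.055 on the GW arrays and 0.025, -0.004 and 0.008 on the combination arrays. Of the 9 treated arrays, 8 lay above all vehicle arrays, GW array 2 only just, and exercise array 3 lay among them. The medians against vehicle rested in part on single arrays, and without exercise array 3 the median for exercise was 0.101, while without GW array 3 that for GW was 0.00684. Without vehicle array 3, which all 3 comparisons share, the medians were 0.0277 in GW, 0.0403 in exercise and 0.0259 in the combination. With the mean over all probe sets of a gene, the combination median was 0.0223 and the exercise median 0.0325. Under quantile normalization the GW median was -0.00215, below 0.

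The fit could detect a large change on these arrays. Ucp3, a mitochondrial carrier and known target of PPARδ, read 723, 549 and 635 in vehicle, 1623, 1220 and 1468 in GW, 1049, 1105 and 953 in exercise and 1253, 1298 and 1354 in the combination. It was higher than vehicle by 1.18 ± 0.12 (SE, n = 3) on the log2 scale in GW (adjusted p 0.000181 by limma) and by 1.04 ± 0.12 in the combination (adjusted p 0.000705). In exercise the Ucp3 difference was 0.71 ± 0.12 (adjusted p 0.0815). Pdk4, which restrains glucose oxidation, differed from vehicle by 1.24 ± 0.23 in GW (adjusted p 0.074), 0.91 ± 0.23 in exercise (adjusted p 0.244) and 1.22 ± 0.23 in the combination (adjusted p 0.057), none past the threshold. Read from the brightest probe set of each gene, the largest Nduf fold against vehicle was 1.28, that of Ndufb1 in GW. Among the other Nduf probe sets tested, a dim one of Ndufs4 (mean signal 136.1) reached a log2 difference of 0.649 in exercise against vehicle, which did not pass the test.

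**Figure D4:**
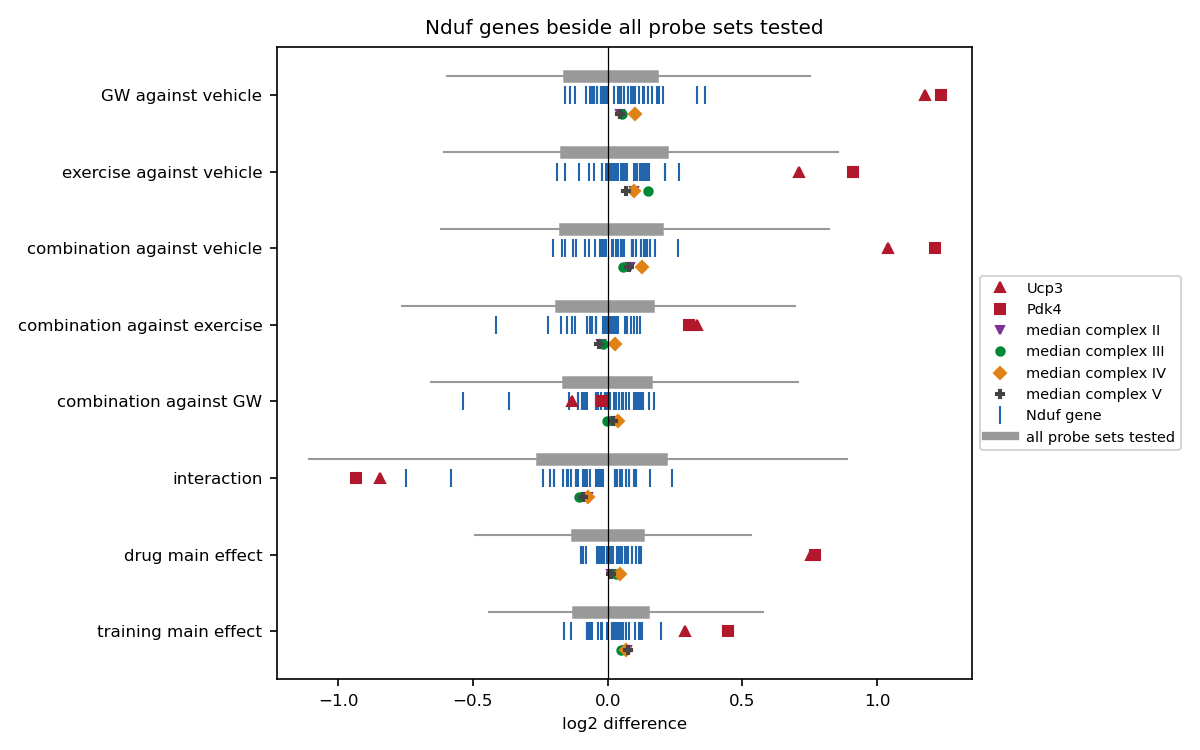
Log2 differences of the 39 Nduf genes (blue ticks) in the 8 comparisons, with all 13575 probe sets tested as a grey line (their middle 95%) and a grey bar (between their quartiles), the medians of complexes II to V, Ucp3 and Pdk4. The ticks lie around 0, while Ucp3 and Pdk4 lie at 1.18 and 1.24 in GW against vehicle.

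The other complexes of the respiratory chain gave 0 called genes as well, in all 8 comparisons. Against vehicle in GW, exercise and the combination, the medians were 0.0441, 0.0991 and 0.0826 for 6 genes of complex II, succinate dehydrogenase. They were 0.0545, 0.149 and 0.0566 for 9 genes of complex III, 0.1, 0.0988 and 0.128 for 15 genes of complex IV and 0.0453, 0.0677 and 0.0777 for 17 genes of complex V, the ATP synthase. All 12 of these medians were above 0 as deposited and under quantile normalization, cyclic loess and median centring. The 3 Nduf medians were above 0 as deposited, and that in GW was -0.00215 under quantile normalization. At an unadjusted p under 0.05, exercise gave 3 of 9 in complex III (among them Cyc1, cytochrome c1, at 0.20), 2 of 15 in complex IV (Cox5a at 0.23) and 4 of 17 in complex V (Atp5g3 at 0.21), all higher, beside 1 of 39 Nduf genes and 10.4% of all probe sets. GW gave 2 of 9, 1 of 15 and 1 of 17 in complexes III, IV and V (6.42% of all probe sets), and the combination 1 of 9, 4 of 15 and 3 of 17 (9.98%), all higher. Complex II gave 0 of 6 in each of the 3 comparisons. Whether complex I differs from the others in this was not tested.

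Complex I factors with other names were on the array for 11 of 14, and 0 were called. Among them Foxred1, an assembly factor, showed 0.58 ± 0.24 (SE, n = 3) in GW against vehicle (adjusted p 0.751), and Dmac2, a distal arm assembly factor, showed 0.53 ± 0.16 in exercise (adjusted p 0.297). Regulators of respiratory genes were tested for 15 genes, and 0 were called. Ppard, the gene of the receptor that GW1516 activates, had a mean signal of 2.99 and was not tested. Nrip1 differed from vehicle by 0.56 in GW (adjusted p 0.597 by limma), -0.14 in exercise and 0.17 in the combination. Ppara, at a mean signal of 50.69, differed by -0.22 in GW, -1.03 in exercise (adjusted p 0.375) and -0.37 in the combination. The coactivator Ppargc1a differed from vehicle by 0.14 in GW, 0.05 in exercise and -0.12 in the combination, the nuclear receptor Esrra by 0.20, 0.21 and -0.07, and Tfam, which maintains mitochondrial DNA, by -0.01, 0.11 and -0.08. Of 10 genes of general mitochondrial content 0 were called, and Cs, citrate synthase, differed by -0.03, -0.02 and 0.00. Others differed more. Hspd1 showed 0.26, 0.24 and 0.31 (adjusted p 0.721, 0.435 and 0.336 by limma), and Slc25a4 0.19, 0.21 and 0.13 (adjusted p 0.703, 0.316 and 0.547). Tomm20 showed 0.09, 0.04 and -0.25, with an adjusted p of 0.406 in the combination.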

How the data were processed

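Quadriceps RNA was measured on 12 one-colour mouse arrays, 3 per group. The authors deposited linear signal intensities from MAS5, per the submitters' processing notes, with the version not given in the sources used here. The mean of each array without the lowest and highest 2% lay between 200.093 and 200.098. Of 22690 probe sets, 20393 had 1 symbol in the array annotation, 691 several and 1606 none, and 64 controls were left out. Log2 values of the upper 60% by mean signal (13575 probe sets, above 28.43) were fitted with limma 3.58.1 in R 4.3.3, as 4 groups with an intensity trend (8 residual degrees of freedom), in 8 contrasts. Adjusted p-values (Benjamini-Hochberg, two-sided) cover all probe sets tested, with a threshold of 0.05. All 39 Nduf genes passed the filter, as did 71 of their 74 probe sets, and all 39 matched a RefSeq gene ID with 0 changed symbols. Ndufa11, Ndufb4 and Ndufs6 have only probe sets with several symbols and are not among the 39.

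The members and gene lists were chosen with earlier results of these data known. Named in full were the 3 Nduf genes with the smallest p in each contrast, and with at least their log2 differences the core subunits, the assembly factors and Ndufa4. From the other lists, up to 4 genes per contrast with the smallest p could be named, and always Ppargc1a, Esrra, Tfam, Cs, Pdk4 and Ucp3. Other Nduf genes were named by role. The precision is limited by 3 arrays per group. Alternatives were 3 other normalizations, a pseudocount of 10.5, other filters, moderation, array weights, fits of the compared groups alone, a replicate block, the mean of probe sets, a fat marker covariate (4 markers) and leaving out each array. The other scalings of complexes II to V were added after seeing the data.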

Additional observations from a re-analysis of the deposited data

Results flagged for a closer look

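Probe sets that carry an Nduf symbol together with another were outside the Nduf genes described, and 7 had a mean signal above the bacterial 95th percentile of 23.52. These were Ndufa11b/Ndufa11 at 1803, Ndufab1-ps/Ndufab1 at 1121, Ndufb2/Adck2 at 71.55, 2 probe sets of Ndufb4b/Ndufb4c/Ndufb4 at 3768 and 2590, Ndufs5/Ndufs5-ps at 1097 and Ndufs6b/Ndufs6 at 1804. Their signal cannot be given to 1 gene. All 7 were tested, and 0 were called in any contrast.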

How the results depend on the processing

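In all 8 contrasts, 0 Nduf genes were called under each of the alternatives run, including every fit without 1 array. The median log2 difference moved by more than the spread between arrays (0.0333) in these cases. GW against vehicle was -0.00215 under quantile normalization and 0.00684 without GW array 3. Without exercise array 3, exercise against vehicle was 0.101 and the combination against exercise was -0.0465. The interaction was -0.0824 with array weights and -0.0766 with the mean of probe sets. Leaving out 1 array gave medians from 0.00684 to 0.0618 for GW against vehicle, from 0.039 to 0.101 for exercise against vehicle, from 0.0259 to 0.0747 for the combination against vehicle and from -0.0465 to 0.0181 for the combination against exercise, the extremes -0.0465 and 0.101 without exercise replicate 3. With the interval limit at 1.2-fold, chosen after seeing the data, the intervals lay within it for 21 genes in GW, 18 in exercise and 19 in the combination against vehicle, 19 in the combination against GW and 5 in the interaction. Ndufab1 in GW against vehicle was -0.022 with the mean of probe sets. That mean takes in 0.206, 0.0864 and -0.358, the last from the probe set too dim to be tested. Deviations of arrays with the same number in their titles correlated from -0.0484 to 0.1. Arrays of different numbers were not compared, so this cannot show whether the number pairs arrays. With the number as a replicate block, 0 Nduf genes were called and the median of GW against vehicle was 0.0488. Searching the gene's strand alone gave 6 of 36 members for AAGATGGC (1.98% of all genes), 2 for GCGCATGC (2.11%), 3 for CCGGAAG (5.4%) and 1 for AAGGTCA (2.87%). Probe sets of low signal (Ndufaf7, Ndufb1) leave wide intervals, and pools of mice hide the spread between animals.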

Other observations

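For 20 of the 39 Nduf genes, a second probe set with the same symbol was measured on the same RNA. The log2 difference had the same sign in both probe sets for 15 of 20 genes in GW against vehicle, 12 in exercise against vehicle, 10 in the combination against vehicle, 11 in the combination against exercise, 12 in the combination against GW, 13 in the interaction, 14 for the drug averaged over training and 6 for training averaged over the drug. The median gap between the 2 probe sets of a gene was 0.0778, 0.0927, 0.124 and 0.0968 for GW, exercise and the combination against vehicle and for training averaged over the drug, beside median absolute differences of the 39 genes of 0.0742, 0.0706, 0.0891 and 0.0497. Of the 71 single-symbol Nduf probe sets tested, 0 were called in any contrast.

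Ndufs8, a core subunit of the Q module with 6 probe sets, shows the range. Its brightest probe set differed from vehicle by 0.05 in GW and 0.03 in exercise, and its dimmest, at a mean signal of 174.2, by 0.529 and 0.544 (adjusted p 0.823 and 0.568 by limma). Ndufv2 had 3 probe sets, at 0.11, -0.19 and -0.14 in exercise against vehicle from the brightest to the dimmest. Ndufs4 had 3 as well, at 0.26, 0.107 and 0.649 in exercise against vehicle. In the same order they gave 0.26, -0.189 and 0.0383 in the combination and 0.13, -0.208 and 0.379 in GW. For Ndufab1, a second probe set with that symbol alone differed by 0.0864 in GW and by -0.322 in the combination against vehicle, where the brightest gave 0.21 and 0.12.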
